A study of Mus musculus with 16 samples.

Results

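Genes of glycolysis and of the response to low oxygen were followed in cultured fat progenitors given a beta-adrenergic agonist. The group holds 38 genes, taken by symbol from the 27179 entries of the deposited table. Their selection was made with earlier results of these data known. All 38 were found, and 36 had a normalized count (reads divided by the size factor of a library) of at least 10 in at least 4 of the 16 libraries, as did 14005 entries in all. They were divided by role into 22 glycolytic genes (4 transporters, 15 enzymes and 3 regulators) and 16 other genes of the hypoxia-inducible factor (HIF) pathway (5 of oxygen sensing and 11 further targets). PDGFRb+ cells of inguinal white adipose tissue from C57BL/6 mice had been isolated by flow cytometry, separated into DPP4_neg and DPP4_pos adipose progenitor cells (APCs) and cultured with 10% serum. DPP4 is a surface peptidase. DPP4_neg and DPP4_pos APCs each received vehicle (PBS) or isoproterenol for 4 h, which gave 4 groups of 4 libraries. Isoproterenol is an agonist of beta-adrenergic receptors, and the labels give its dose as 10 mM, a unit that could not be checked here. No label used here states the age or sex of the mice, or the oxygen level of the cultures. Replicates may be separate cultures, mice or technical repeats, which no label says, and p-values cover the spread among libraries alone.

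As background, HIF is made of an oxygen-regulated alpha subunit (Hif1a or Epas1) and a constant partner. When oxygen is present, prolyl hydroxylases (Egln genes) mark the alpha subunit, and the Vhl protein directs its destruction. Stabilised HIF binds DNA at a short core, RCGTG, and raises glucose transporters, most glycolytic enzymes, the lactate exporter Slc16a3 and Pdk1, which keeps pyruvate out of mitochondria. Glycolysis splits glucose into pyruvate, which Ldha turns into lactate. Beta-adrenergic receptors act through cyclic AMP and the factor CREB, which binds the palindrome TGACGTCA or its short form TGACG.

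Libraries held 9823799 to 28627223 reads in genes. Normalized totals were 18373884 to 18618379 in DPP4_pos isoproterenol libraries and 15178960 to 16240972 in the others. Dpp4, the marker of the sort, had 15.3 to 24.6 and 7.89 to 13.1 normalized counts in DPP4_neg vehicle and isoproterenol libraries, and 2853 to 3227 and 2104 to 2326 in those of DPP4_pos APCs. Pdgfrb had 11194 to 11527, 8609 to 9557, 7142 to 7881 and 1987 to 2347 in the same order. The 8 PDGFRb progenitor markers examined (Pdgfrb, Pdgfra, Dpp4, Ly6a, Cd34, Col1a1, Dcn and Lum) were all found. Per library they summed to 195578 to 203742, 191043 to 216019, 234301 to 242354 and 185064 to 190843 normalized counts in the same order. With isoproterenol 2 of the 8 rose and 3 fell in DPP4_neg, where 32.1% of all genes rose and 33.6% fell. In DPP4_pos APCs 0 rose and 6 fell, where 39.4% of all genes rose and 43.3% fell. The sum of 10 mural cell markers, which includes the smooth muscle actin gene Acta2, was 103783 to 114043 and 72154 to 77877 in DPP4_neg APCs given vehicle and isoproterenol, and 7817 to 8905 and 4993 to 5985 in DPP4_pos APCs. The sum of 7 adipocyte markers was 41709.5 to 48938, 15199.6 to 17688, 15830.1 to 17890.2 and 5199 to 6296 in the same order, with Lep at 0 in every isoproterenol library. For 12 macrophage and leukocyte markers it was 434 to 954, 747 to 1779, 556 to 994 and 634 to 1376. For 10 endothelial markers it was 214 to 251, 243 to 311, 1194 to 1259 and 1317 to 1440.4. The 6 mesothelial markers summed to 625 to 786, 1228 to 1718, 121 to 174 and 129.7 to 194, and the 8 skeletal muscle markers to 846 to 1058, 429 to 601, 213 to 262 and 68.5 to 87.1, with Ckm at 0 throughout. Of 5 erythroid markers 4 were found, at a sum of at most 15.03. Higd1b (mural) and Msln (mesothelial) were at 0 in every DPP4_pos isoproterenol library. Sums weigh each marker by its counts, and the markers of a list did not all move alike. Of 9 tested mural markers, 1 was higher and 5 lower in DPP4_pos than in DPP4_neg under vehicle, where 31.6% and 35.0% of all genes were. Under isoproterenol 3 were higher and 6 lower, where 37.4% and 37.0% of all genes were. Of 2 tested mesothelial markers 1 was higher and 1 lower under vehicle. These sums moved with the groups, and their part in the results below was not tested. In bulk RNA, fewer cells of a type and less RNA per cell cannot be told apart.

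Promoters of 5 members that changed strongly or that differed between the populations are shown to give the letters that HIF and CREB are known to read. The 5 were picked by name and not by a rule, and do not stand for the group. Ddit4 and Slc2a1, which also rose strongly, are not shown and had no TGACG in their windows. Each is the stretch of 250 bases before a RefSeq start site (GRCm38.p6), 5′ to 3′. Capitals mark ACGTG and GCGTG, the forms of the HIF core, and TGACG and TGACGTCA, on either strand, so CACGT and CACGC are the same cores read on the other strand.
Hk2 (chr6:82774455-82774704, minus strand): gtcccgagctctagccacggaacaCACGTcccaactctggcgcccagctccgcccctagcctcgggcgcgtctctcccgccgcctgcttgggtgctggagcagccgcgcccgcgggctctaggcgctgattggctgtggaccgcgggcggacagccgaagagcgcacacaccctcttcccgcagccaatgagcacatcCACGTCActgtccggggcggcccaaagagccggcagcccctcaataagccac
Slc16a3 (chr11:120948817-120949066, plus strand): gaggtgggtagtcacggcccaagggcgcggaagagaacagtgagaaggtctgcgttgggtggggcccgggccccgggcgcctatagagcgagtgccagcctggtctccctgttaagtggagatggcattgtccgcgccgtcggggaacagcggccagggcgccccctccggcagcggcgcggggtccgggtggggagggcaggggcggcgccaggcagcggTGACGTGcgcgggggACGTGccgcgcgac
Slc16a1 (chr3:104638414-104638663, plus strand): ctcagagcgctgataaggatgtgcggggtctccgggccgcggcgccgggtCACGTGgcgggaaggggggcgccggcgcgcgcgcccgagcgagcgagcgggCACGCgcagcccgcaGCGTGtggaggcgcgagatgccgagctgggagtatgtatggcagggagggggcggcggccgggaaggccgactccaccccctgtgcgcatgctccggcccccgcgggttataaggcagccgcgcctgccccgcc
Egln3 (chr12:54203875-54204124, minus strand): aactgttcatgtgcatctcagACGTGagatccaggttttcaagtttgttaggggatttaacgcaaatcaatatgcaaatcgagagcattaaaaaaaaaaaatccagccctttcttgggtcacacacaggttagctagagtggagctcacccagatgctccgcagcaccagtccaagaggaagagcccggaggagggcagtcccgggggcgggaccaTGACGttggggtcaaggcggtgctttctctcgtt
Ldha (chr7:46845554-46845803, plus strand): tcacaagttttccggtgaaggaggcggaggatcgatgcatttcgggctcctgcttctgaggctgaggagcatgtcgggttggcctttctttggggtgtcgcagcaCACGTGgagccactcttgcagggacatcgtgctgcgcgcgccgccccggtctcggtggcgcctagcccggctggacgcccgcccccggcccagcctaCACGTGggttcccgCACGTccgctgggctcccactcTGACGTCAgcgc
The motifs can overlap: each CACGTG holds ACGTG on both strands, and TGACGTG in Slc16a3 and CACGTCA in Hk2 hold a HIF core and a TGACG together. The last bases of the Slc16a3 window lie in an exon of another GENCODE transcript. The Ldha window precedes 1 of the 2 RefSeq starts examined and holds 5 ACGTG matches, counting each strand, and the whole TGACGTCA. The gene spans given below for Ldha and Slc16a3 begin upstream of these windows, so both windows lie within the annotated gene. Among the 34 members with a RefSeq promoter, 20 (58.8%) had ACGTG before at least 1 start, where 24.8% of 10771 tested genes did. GCGTG was found in 21 members (61.8%), where 49.5% of tested genes had it. Either core was found in 29 members (85.3%) and in 60.8% of tested genes. TGACG was found in 7 members (20.6%) and in 30.1% of tested genes. TGACGTCA was found in 1 member (2.94%), Ldha, and in 3.07% of tested genes. Of all 32851 promoters, 16.6% held ACGTG, 28.2% GCGTG, 17.8% TGACG and 1.55% TGACGTCA. The members were chosen as genes of glycolysis and the HIF pathway, so a higher share of HIF cores among them is no independent finding. The members with a promoter also include Aldoc and Car9, which were not among the tested genes. A match describes the letters and does not show binding.

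How the group as a whole responded was asked first. The 15 glycolytic enzyme genes together rose with isoproterenol in both populations, from a low level in DPP4_pos vehicle cells. They summed to 98927 ± 2123 normalized counts in DPP4_neg vehicle and 118531 ± 4685 in DPP4_neg isoproterenol libraries (mean ± SD, n = 4 here and below). In DPP4_pos APCs the sums were 48519 ± 1055 and 94148 ± 3962. In neither population did vehicle and isoproterenol libraries overlap. The 16 other genes summed to 27167 ± 267 and 32663 ± 276 in DPP4_neg, and to 17825 ± 197 and 34298 ± 888 in DPP4_pos APCs. Normalized totals were highest in DPP4_pos isoproterenol libraries. As a share of them, the enzymes were 0.618% and 0.734% in DPP4_neg and 0.317% and 0.509% in DPP4_pos APCs. The other genes were 0.170% and 0.202%, and 0.116% and 0.185%. By share, the other genes were thus lower in DPP4_pos than in DPP4_neg isoproterenol libraries, the reverse of the sums. Sums and shares weigh each gene by its counts, most of which in the enzymes come from Pkm, Ldha, Aldoa and Eno1, and carry no test.

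**Figure D1:**
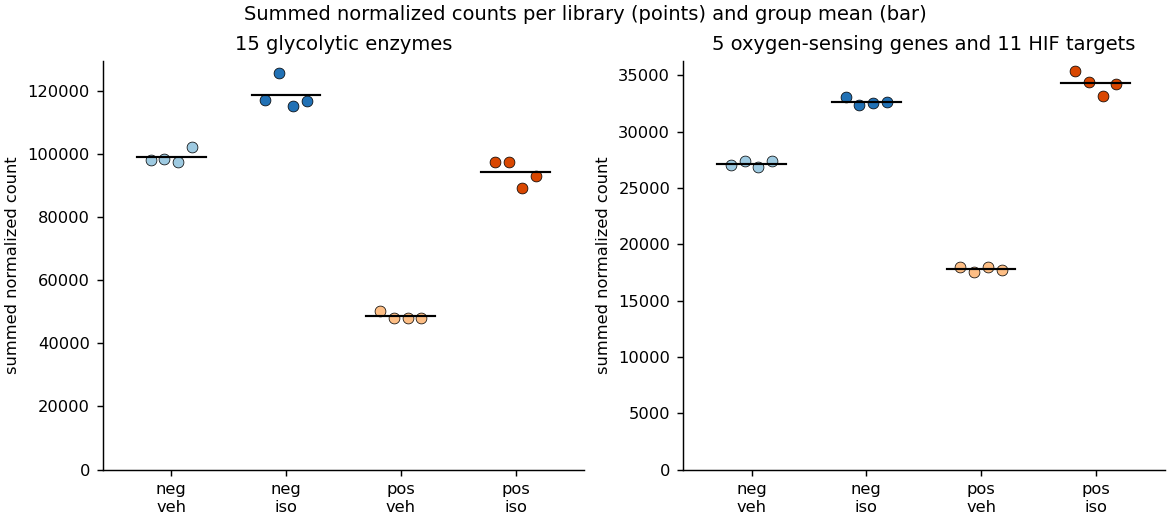
Summed normalized counts of the 15 glycolytic enzymes (left) and of the 16 other genes of oxygen sensing and HIF response (right), on linear axes from 0. Each point is a library, bars are means of 4, and in both panels the 4 DPP4_pos vehicle libraries lie lowest.

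Gene by gene, isoproterenol raised more members than it lowered in each population. In DPP4_neg APCs, 19 of 36 rose, 8 fell and 9 did not pass (limma, adjusted p under 0.05), where 65.7% of all 14005 genes were called, 32.1% higher and 33.6% lower. The median log2 difference of the members was 0.19, against −0.02 over all genes. Vehicle and isoproterenol libraries did not overlap in 19 members that were higher and 6 that were lower, where this held for 58.9% of all genes, 28.2% higher and 30.6% lower. Of 21 glycolytic genes 12 rose and 4 fell, and of 15 other genes 7 rose and 4 fell. Without DPP4_neg vehicle replicate 2 the glycolytic genes that fell were 2, as Tpi1 and Pfkfb3 lost their calls. In DPP4_pos APCs, 29 of 36 rose, 6 fell and 1 did not pass, where 82.7% of all genes were called, 39.4% higher and 43.3% lower. The median was 0.82, against −0.05 over all genes. Libraries did not overlap in 29 higher and 5 lower members, where this held for 77.8% of all genes, 37.5% higher and 40.4% lower. There 17 glycolytic genes rose and 4 fell, and 12 other genes rose and 2 fell. A change of at least 2-fold that passed was seen in 5 members in DPP4_neg, all higher, where 15.3% of all genes had one. In DPP4_pos APCs 13 members were at least 2-fold higher and 2 lower, where 30.7% of all genes passed in either direction. The difference between the responses, tested as an interaction, was positive in 24 members, negative in 6 and did not pass in 6, where 62.6% of all genes were called, 31.6% positive and 31.0% negative. Under quantile normalization the split was 19 positive and 9 negative. The median difference was 0.49, against −0.02 over all genes. This comparison uses the same libraries as the responses themselves.

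**Figure D2:**
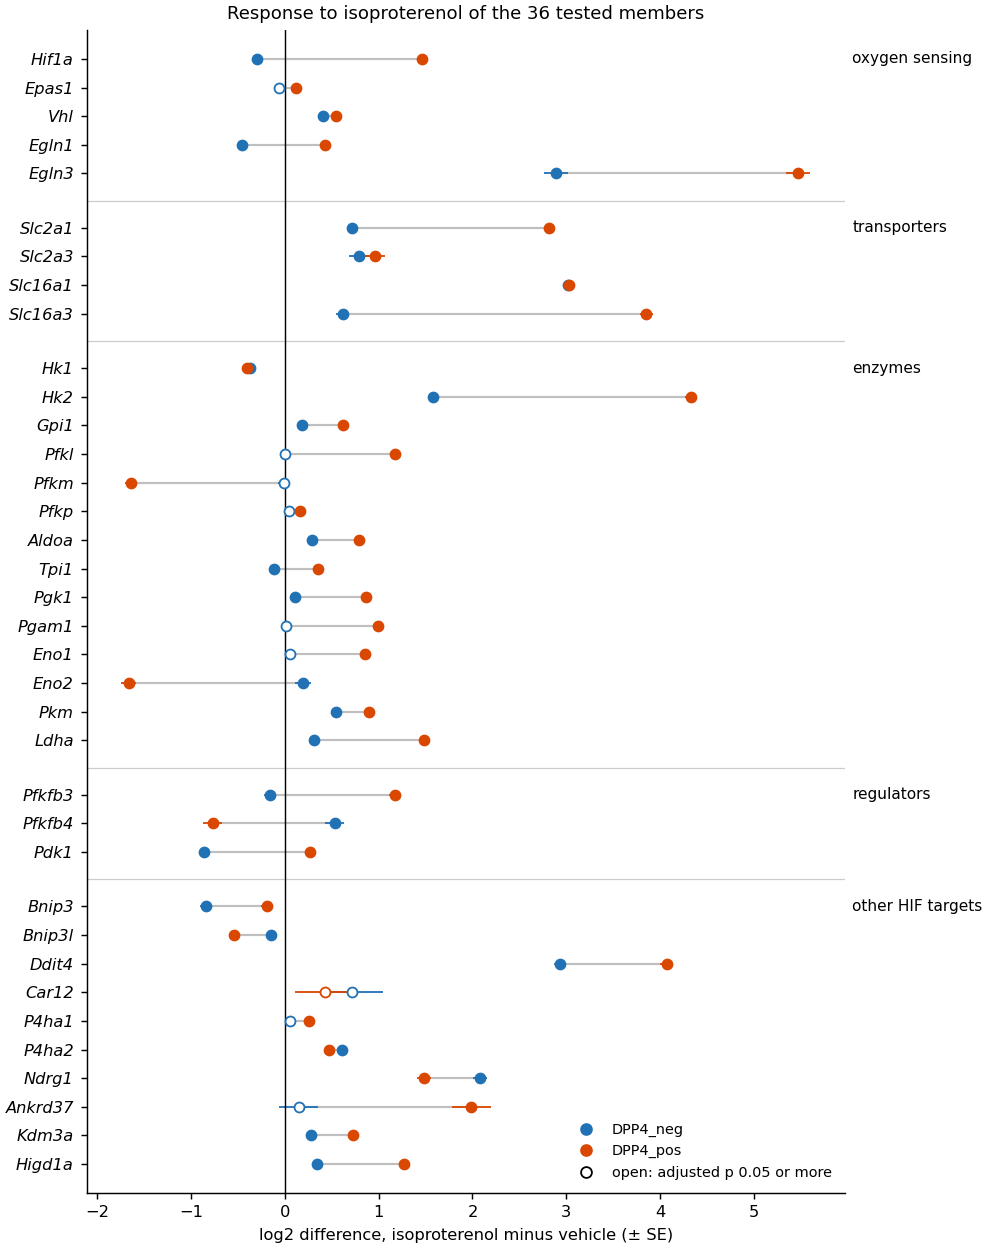
Log2 difference between isoproterenol and vehicle, ± SE, for the 36 tested members by role, in DPP4_neg (blue) and DPP4_pos APCs (orange); open symbols did not pass. Egln3 lies farthest right in DPP4_pos APCs at 5.47, and Eno2 and Pfkm lie farthest left there at −1.67 and −1.64.

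The 14 members whose pattern is given library by library are the 8 core genes of the pathway (Hif1a, Epas1, Egln3, Slc2a1, Hk2, Pfkfb3, Pdk1 and Ldha) and the 5 of each division with the largest fitted difference, which overlap in part. Their values, in replicate order, show how far groups stand apart before any fold is taken.

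**Figure D3:**
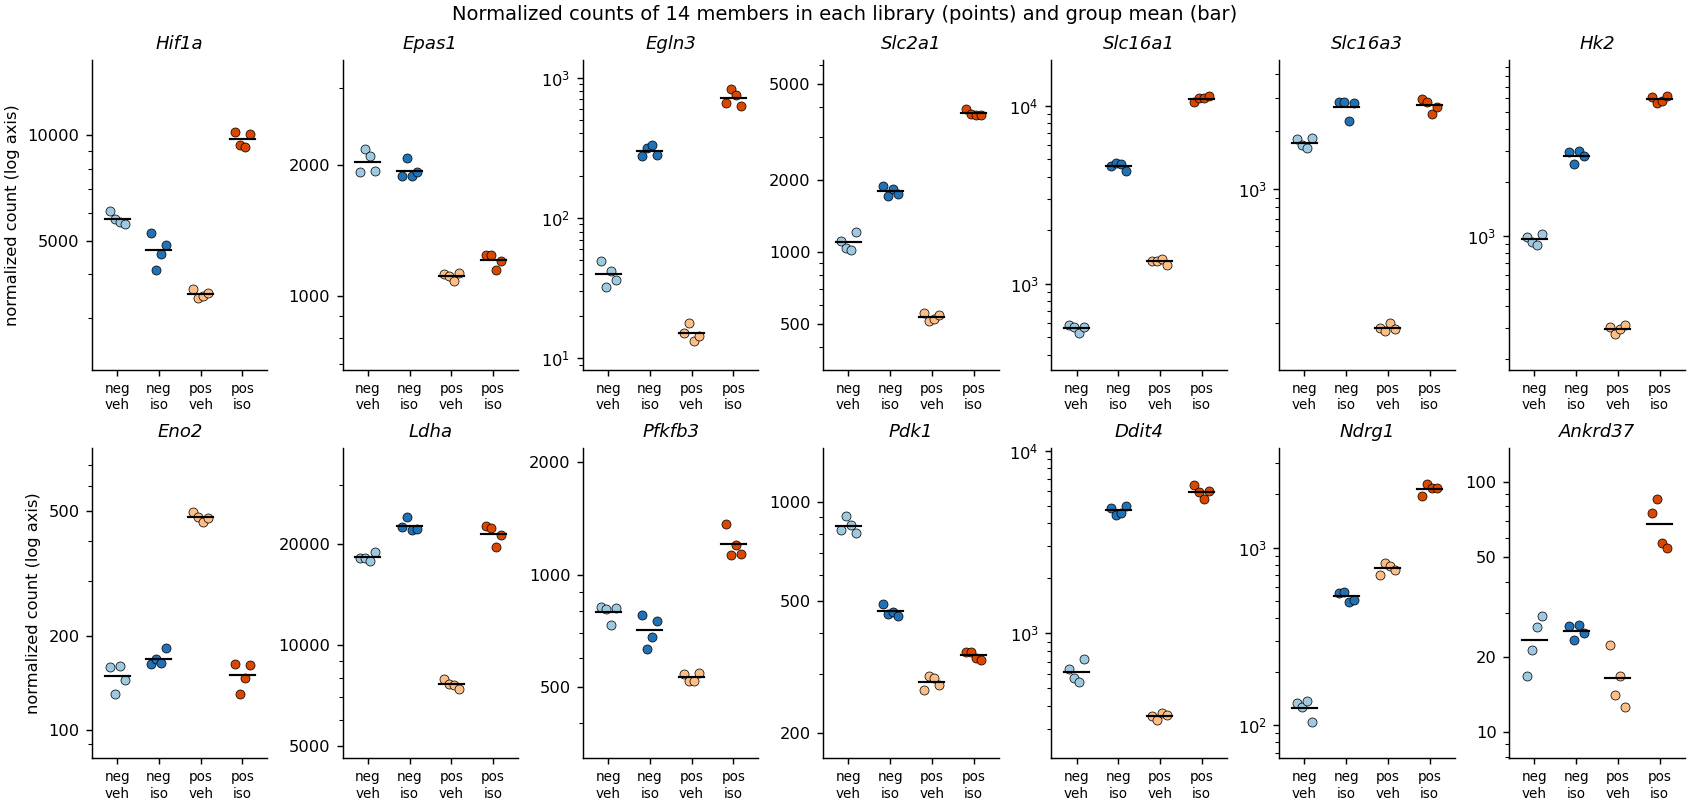
Normalized counts of 14 members on log axes; points are libraries and bars are means of 4, for DPP4_neg (neg) and DPP4_pos (pos) APCs given vehicle (veh) or isoproterenol (iso). The 4 DPP4_pos isoproterenol libraries are the highest for Hif1a, Egln3, Slc2a1, Slc16a1, Hk2, Pfkfb3, Ddit4, Ndrg1 and Ankrd37.

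Among the genes of oxygen sensing, Hif1a (chromosome 12, 73901324 to 73947554, GRCm38) encodes the HIF-1 alpha subunit and moved in opposite directions in the populations. In DPP4_neg APCs the vehicle libraries held 6075, 5769.7, 5638 and 5588 normalized counts of Hif1a and the isoproterenol libraries 5240.3, 4106, 4581 and 4851. In DPP4_pos APCs the vehicle libraries held 3646, 3423, 3468 and 3536 and the isoproterenol libraries 10232, 9385, 9249 and 10049.6. The groups did not overlap in either population: the isoproterenol libraries were lower in DPP4_neg and higher in DPP4_pos APCs. The change was 1.23-fold down in DPP4_neg (log2 difference −0.30 ± 0.05, limma adjusted p = 4.31e-05). It was 2.76-fold up in DPP4_pos (log2 difference 1.47 ± 0.05, limma adjusted p = 1.54e-16). The smallest log2 difference of Hif1a in DPP4_pos among 27 alternative fits was 1.03, and none ended the call. Epas1 (chromosome 17, 86753864 to 86833410), which encodes HIF-2 alpha, moved little. Its normalized counts were 1928, 2174, 2093 and 1932 in the vehicle and 1881, 2070.4, 1882 and 1922 in the isoproterenol libraries of DPP4_neg APCs. Those of DPP4_pos APCs were 1125, 1112, 1085 and 1127 and 1245, 1240.5, 1146 and 1203. Vehicle and isoproterenol libraries overlapped in DPP4_neg, where Epas1 did not pass (log2 difference −0.07 ± 0.04, limma adjusted p = 0.186); it passed without DPP4_neg isoproterenol replicate 2 (−0.10). In DPP4_pos APCs they did not overlap (log2 difference 0.12 ± 0.04, limma adjusted p = 0.0162), but TMM scaling ended that call (0.07) and quantile normalization turned its direction (−0.09). The responses of Epas1 differed by 0.19 ± 0.06, and TMM (0.13), edgeR (0.13) and quantile normalization (0.03) ended that call. Per base of exon, Hif1a made up 74.99% ± 0.421 of both alpha subunit transcripts in DPP4_pos vehicle and 88.4% ± 0.451 in isoproterenol libraries. In DPP4_neg it made up 72.9% ± 1.54 and 69.5% ± 3.06.

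Egln3 (chromosome 12, 54178981 to 54203874) encodes an inducible HIF prolyl hydroxylase and had the largest rise of all members in DPP4_pos APCs. DPP4_neg libraries had 49.6, 32.1, 42.003 and 35.9 normalized counts under vehicle and 276, 313, 329.7 and 279.6 under isoproterenol. DPP4_pos libraries had 15.2, 17.8, 13.3 and 14.4 under vehicle and 662, 833, 751 and 629.5 under isoproterenol. Isoproterenol libraries lay above all vehicle libraries in both populations. Egln3 rose 7.43-fold in DPP4_neg (log2 difference 2.89 ± 0.13, limma adjusted p = 1.12e-14) and 44.5-fold in DPP4_pos APCs (log2 difference 5.47 ± 0.13, limma adjusted p = 5.78e-20). Egln1, which encodes the main hydroxylase of cells with oxygen, fell in DPP4_neg from 1716 ± 8.099 to 1245 ± 47.4 (log2 difference −0.46 ± 0.03, limma adjusted p = 7.71e-11). It rose in DPP4_pos from 1010.3 ± 13.8 to 1359 ± 28.8 (log2 difference 0.43 ± 0.03, limma adjusted p = 1.33e-10). Per exon base, Egln3 went from 3.04% ± 0.568 to 24.5% ± 1.54 of the 2 hydroxylase transcripts in DPP4_neg and from 1.99% ± 0.238 to 41.5% ± 3.500 in DPP4_pos. Vhl, which directs the marked alpha subunit to destruction, rose in both populations, 1.33-fold (log2 difference 0.41 ± 0.06, limma adjusted p = 1.14e-06) and 1.46-fold (log2 difference 0.54 ± 0.06, limma adjusted p = 7.26e-09). The difference between its responses did not pass (log2 difference 0.14 ± 0.08, limma adjusted p = 0.136).

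All 4 transporter genes rose in both populations, where 32.1% of all genes rose in DPP4_neg and 39.4% in DPP4_pos APCs. Slc2a1 (chromosome 4, 119108745 to 119137330) encodes the glucose transporter GLUT1. Under vehicle the DPP4_neg libraries held 1109, 1037, 1019 and 1204 normalized counts of Slc2a1, and under isoproterenol 1885, 1715, 1827 and 1744. For DPP4_pos libraries the values were 556, 515, 525 and 545 under vehicle and 3937, 3770.2, 3702 and 3700.0 under isoproterenol. Isoproterenol libraries were above vehicle libraries throughout, and the highest values were those of DPP4_pos isoproterenol. The rise was 1.64-fold in DPP4_neg (log2 difference 0.72 ± 0.05, limma adjusted p = 1.3e-11) and 7.05-fold in DPP4_pos APCs (log2 difference 2.82 ± 0.05, limma adjusted p = 2.22e-22). Slc2a3, which encodes GLUT3, rose 1.73-fold, from 144 ± 23.98 to 248 ± 21.3, in DPP4_neg. It rose 1.95-fold, from 159 ± 11.03 to 312 ± 28.2, in DPP4_pos APCs. Its responses did not pass the test of their difference (log2 difference 0.17 ± 0.15, limma adjusted p = 0.336), though they did without DPP4_neg vehicle replicate 4 (0.30).

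Slc16a1 (chromosome 3, 104638664 to 104658462) encodes the monocarboxylate transporter MCT1, which carries lactate and pyruvate both ways. Normalized counts of Slc16a1 in DPP4_neg APCs were 585, 569.6, 528 and 571 with vehicle and 4575, 4762, 4699 and 4304 with isoproterenol. With vehicle, DPP4_pos APCs had 1346, 1350.3, 1375 and 1274, and with isoproterenol 10432, 11016, 11035 and 11262. Isoproterenol libraries stood far above vehicle libraries in both populations, and DPP4_pos above DPP4_neg under each treatment. The rise was 8.13-fold in DPP4_neg (log2 difference 3.02 ± 0.04, limma adjusted p = 7.51e-24) and 8.18-fold in DPP4_pos APCs (log2 difference 3.03 ± 0.04, limma adjusted p = 3.53e-24). The difference between these responses did not pass (log2 difference 0.01 ± 0.06, limma adjusted p = 0.899). Under quantile normalization it was −0.37 and passed. Slc16a3 (chromosome 11, 120948484 to 120959000) encodes MCT4, the lactate exporter of glycolytic cells. In DPP4_neg APCs the vehicle libraries held 1836, 1690.2, 1632 and 1838 normalized counts of Slc16a3 and the isoproterenol libraries 2847, 2836, 2260.4 and 2815. In DPP4_pos APCs the vehicle libraries held 186, 181, 198 and 186 and the isoproterenol libraries 2954, 2862, 2459 and 2685. DPP4_pos vehicle libraries were far below the rest, and under isoproterenol the populations overlapped. Slc16a3 rose 1.53-fold in DPP4_neg (log2 difference 0.62 ± 0.07, limma adjusted p = 4.95e-08) and 14.5-fold in DPP4_pos APCs (log2 difference 3.86 ± 0.07, limma adjusted p = 3.79e-22). Per exon base, Slc16a3 fell from 72.1% ± 0.685 to 32.8% ± 2.92 of the pair in DPP4_neg, where Slc16a1 rose more. In DPP4_pos APCs it was 10.5% ± 0.358 and 17.3% ± 1.49.

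Among the enzymes, 7 of 14 rose, 2 fell and 5 did not pass in DPP4_neg, where 65.7% of all genes were called. In DPP4_pos APCs 11 rose and 3 fell, where 82.7% of all genes were called. Hexokinase 2, which commits glucose to the cell and is encoded by Hk2 (chromosome 6, 82725025 to 82774454), rose most. Its normalized counts were 976, 916, 885 and 1026 in the vehicle and 2988, 2531, 3009.7 and 2823 in the isoproterenol libraries of DPP4_neg APCs. Those of DPP4_pos APCs were 302, 277, 293 and 309 and 6134, 5638, 5821 and 6188. No isoproterenol library overlapped a vehicle library, and the DPP4_pos values went from the lowest of the 4 groups to the highest. Hk2 rose 2.98-fold in DPP4_neg (log2 difference 1.58 ± 0.06, limma adjusted p = 1.6e-16) and 20.1-fold in DPP4_pos APCs (log2 difference 4.33 ± 0.06, limma adjusted p = 1.86e-24). Hk1, the housekeeping hexokinase, fell in both, 1.29-fold (log2 difference −0.37 ± 0.04, limma adjusted p = 2.52e-08) and 1.33-fold (log2 difference −0.41 ± 0.04, limma adjusted p = 2.64e-09). Per exon base, Hk2 went from 36.7% ± 1.53 to 69.1% ± 2.09 of the pair in DPP4_neg and from 19.3% ± 0.681 to 86.4% ± 1.14 in DPP4_pos APCs.

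Phosphofructokinase, the main control point of glycolysis, has liver, muscle and platelet forms. In DPP4_pos APCs the liver form Pfkl rose from 1449 ± 62.7 to 3279 ± 228 (log2 difference 1.18 ± 0.05, limma adjusted p = 1.38e-15) while the muscle form Pfkm fell from 749 ± 32.1 to 240.0 ± 22.99 (log2 difference −1.64 ± 0.07, limma adjusted p = 9.53e-16). In DPP4_neg neither passed, at 3805 ± 208 and 3807 ± 163 for Pfkl and 601 ± 29.3 and 597 ± 46.6 for Pfkm (log2 differences 0.00 ± 0.05 and −0.01 ± 0.07). Pfkm went from 42.9% ± 1.62 to 10.97% ± 0.702 of the 3 forms per exon base in DPP4_pos APCs, and was 20.9% ± 1.23 and 20.7% ± 1.72 in DPP4_neg. Pfkp, the platelet form, rose 1.12-fold in DPP4_pos (log2 difference 0.16 ± 0.05, limma adjusted p = 0.00219), with the direction turned under quantile normalization (−0.05), and did not pass in DPP4_neg (log2 difference 0.05 ± 0.05, limma adjusted p = 0.37). Its difference of responses (0.12 ± 0.06) passed without DPP4_neg isoproterenol replicate 2 (0.16).

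**Figure D4:**
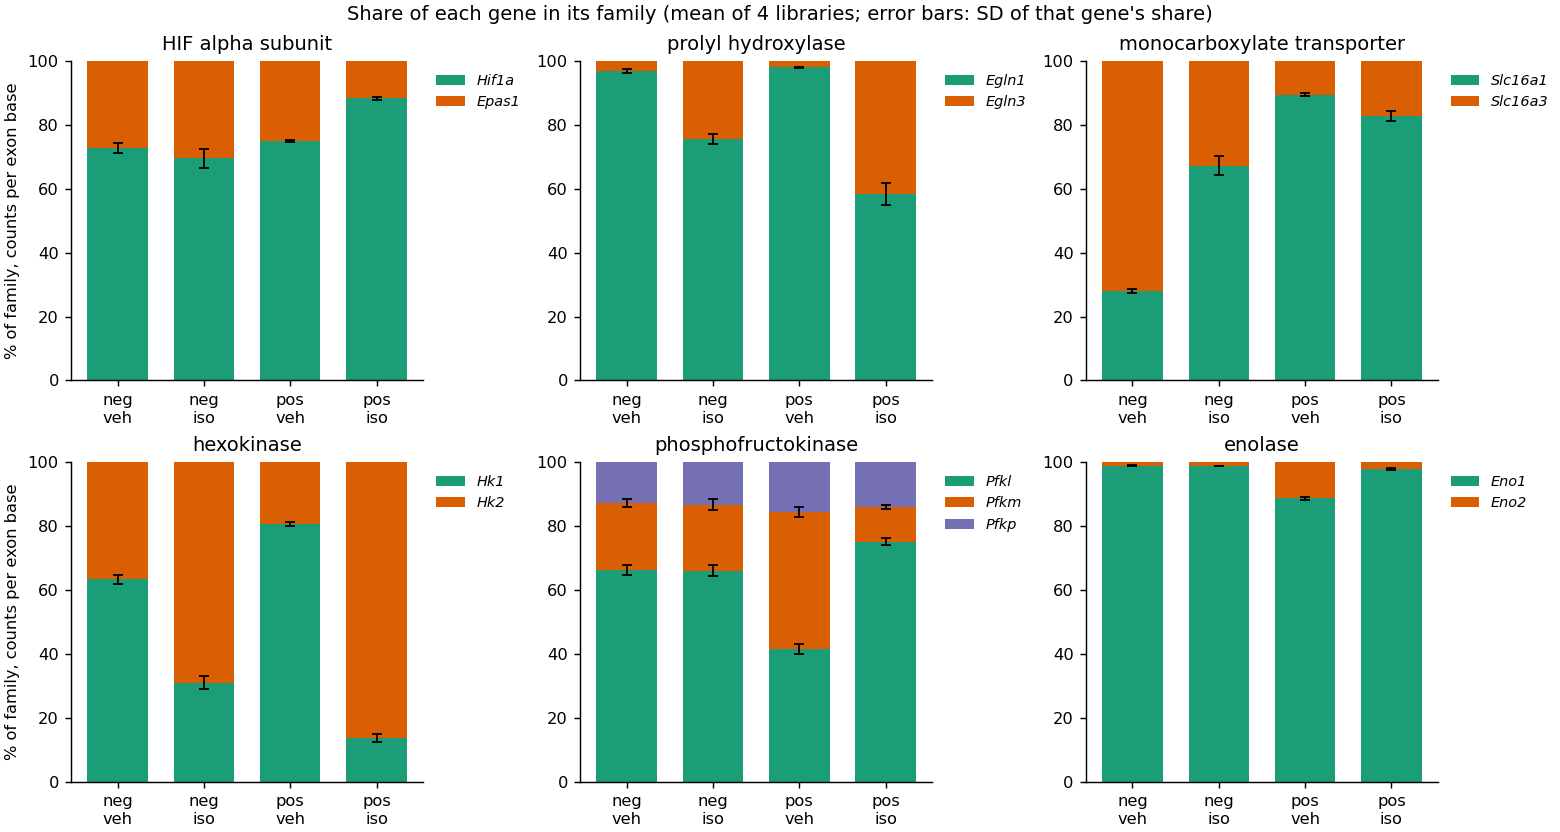
Share of each gene in its family, in percent of normalized counts per exon base, for 6 families in the 4 groups (neg and pos, vehicle and isoproterenol); bars are means of 4 libraries and error bars the SD. In DPP4_pos APCs Hk2, Egln3 and Hif1a take larger shares under isoproterenol and Pfkm and Eno2 smaller ones.

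Enolase 2, the form best known from neurons and encoded by Eno2 (chromosome 6, 124760053 to 124769673), fell in DPP4_pos APCs against the trend of the enzymes. DPP4_neg libraries had 159, 130.5, 160.2 and 144 normalized counts under vehicle and 162, 168, 164 and 182 under isoproterenol. DPP4_pos libraries had 497, 480.1, 461 and 474 under vehicle and 163, 131, 146 and 162 under isoproterenol. DPP4_pos vehicle libraries stood far above the other 12, and the DPP4_pos isoproterenol libraries lay within the range of DPP4_neg. Eno2 fell 3.17-fold in DPP4_pos (log2 difference −1.67 ± 0.08, limma adjusted p = 2.79e-14). In DPP4_neg it was 1.14-fold higher (log2 difference 0.19 ± 0.08, limma adjusted p = 0.0457), a call that 12 of 27 alternatives ended, among them without DPP4_neg vehicle replicate 2 or 4 (0.13, 0.18), DPP4_neg isoproterenol replicate 2, 3 or 4 (0.19, 0.21, 0.15) or DPP4_pos vehicle replicate 1, 2, 3 or 4 (0.19). Eno1, the widespread form, rose from 4266 ± 108 to 7744 ± 440.5 in DPP4_pos (log2 difference 0.86 ± 0.04, limma adjusted p = 1.92e-14) and did not pass in DPP4_neg (log2 difference 0.05 ± 0.04, limma adjusted p = 0.294). The smallest log2 difference of Eno1 in DPP4_pos among 27 alternatives was 0.44, and none ended the call. Its responses differed by 0.81, and by 0.38 in the alternative with the smallest value. Eno2 went from 11.4% ± 0.363 to 2.17% ± 0.218 of both forms per exon base in DPP4_pos APCs.

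Ldha (chromosome 7, 46842274 to 46855627) encodes the lactate dehydrogenase subunit that favours lactate. Under vehicle the DPP4_neg libraries held 18159.6, 18143, 17799 and 18879 normalized counts of Ldha, and under isoproterenol 22494, 24073, 22044 and 22092. For DPP4_pos libraries the values were 7954, 7664, 7599 and 7405 under vehicle and 22533, 22374, 19597 and 21307 under isoproterenol. DPP4_pos vehicle libraries were lowest, and the 2 isoproterenol groups overlapped. Ldha rose 1.24-fold in DPP4_neg (log2 difference 0.31 ± 0.04, limma adjusted p = 1.09e-06) and 2.8-fold in DPP4_pos APCs (log2 difference 1.48 ± 0.04, limma adjusted p = 1.55e-18). Several enzymes between phosphofructokinase and Ldha rose in DPP4_pos APCs, where Eno2 fell. Aldolase Aldoa rose 1.73-fold, phosphoglycerate kinase Pgk1 1.82-fold, the mutase Pgam1 1.99-fold and pyruvate kinase Pkm 1.86-fold. Gpi1, the isomerase ahead of phosphofructokinase, rose 1.54-fold. Under quantile normalization these log2 differences were smaller: 0.24 instead of 0.79 for Aldoa, 0.55 instead of 0.86 for Pgk1, 0.78 for Pgam1, 0.49 instead of 0.90 for Pkm and 0.18 instead of 0.62 for Gpi1. All 5 still passed. In DPP4_neg APCs the same genes rose less: 1.22-fold for Aldoa, 1.08-fold for Pgk1, 1.46-fold for Pkm and 1.13-fold for Gpi1, while Pgam1 did not pass (log2 difference 0.01 ± 0.04, limma adjusted p = 0.902). The calls of Gpi1 and Pgk1 in DPP4_neg ended under quantile normalization (0.06 and 0.01). The responses of Pkm differed by 0.35 ± 0.06, but by −0.11 under quantile normalization, which also ended the difference for Aldoa (0.00) and Gpi1 (0.12). The isomerase Tpi1 rose 1.28-fold in DPP4_pos (log2 difference 0.35 ± 0.04, limma adjusted p = 7.4e-08), with the direction turned under quantile normalization (−0.01). In DPP4_neg it fell 1.09-fold (log2 difference −0.12 ± 0.04, limma adjusted p = 0.0142), and did not pass without DPP4_neg vehicle replicate 2 (−0.10).

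Several of these genes share sequence with copies elsewhere in the mouse genome or with genes that overlap them. Their counts are therefore uncertain. Of all stretches of 50 bases in their transcripts, 53.9% in Pgk1, 36.2% in Pgam1, 26.0% in Eno1 and 25.8% in Pkm also occur in transcripts of other genes. Among the other HIF targets this holds for 47.2% in Bnip3, 24.4% in Higd1a and 20.8% in Bnip3l. Exons of Bnip3, Higd1a, Ankrd37 and Gpi1 also overlap genes on the opposite strand, over 22.3%, 22.5%, 26.4% and 11.5% of their length. Stretches on either strand were counted, so the overlaps of Bnip3 and Higd1a are part of their shares above. The opposite-strand gene accounts for 634 of 798 shared stretches in Higd1a and 359 of 1066 in Bnip3. In Pkm, 623 of 1323 are shared with a gene that overlaps it on the same strand. No source used here says that counting used the strand. The aldolase gene Aldoc stayed under the level set for testing, with mean normalized counts of 4.198 and 8.81 in DPP4_neg and 8.53 and 3.97 in DPP4_pos APCs under vehicle and isoproterenol.

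The regulators of glycolysis responded in opposite directions in the populations. Pfkfb3 (chromosome 2, 11471430 to 11554071) makes the sugar bisphosphate that activates phosphofructokinase most strongly. Normalized counts of Pfkfb3 in DPP4_neg APCs were 819, 810.1, 732 and 815 with vehicle and 779.9, 632, 681 and 753 with isoproterenol. With vehicle, DPP4_pos APCs had 543, 519, 518 and 546, and with isoproterenol 1363, 1127, 1198 and 1133. Treatments overlapped in DPP4_neg and did not in DPP4_pos APCs. Pfkfb3 rose 2.26-fold in DPP4_pos (log2 difference 1.18 ± 0.06, limma adjusted p = 2.12e-13). In DPP4_neg it was 1.12-fold lower (log2 difference −0.16 ± 0.06, limma adjusted p = 0.0344), a call that 7 of 27 alternatives ended, among them without DPP4_neg vehicle replicate 1, 2 or 4 (−0.15) or DPP4_neg isoproterenol replicate 2 or 3 (−0.11, −0.14). Pfkfb4, an isozyme, did the reverse: it rose 1.45-fold in DPP4_neg (log2 difference 0.53 ± 0.10, limma adjusted p = 0.00011) and fell 1.71-fold in DPP4_pos (log2 difference −0.77 ± 0.10, limma adjusted p = 5.19e-07). Per exon base, Pfkfb3 went from 58.7% ± 2.03 to 84.6% ± 1.13 of the pair in DPP4_pos and from 76.4% ± 2.302 to 66.7% ± 3.62 in DPP4_neg APCs. Pdk1 (chromosome 2, 71873215 to 71903858) inhibits pyruvate dehydrogenase. In DPP4_neg APCs the vehicle libraries held 822, 906, 852 and 802 normalized counts of Pdk1 and the isoproterenol libraries 491, 457, 464 and 450.2. In DPP4_pos APCs the vehicle libraries held 269, 297, 293 and 279.6 and the isoproterenol libraries 352, 350.2, 338 and 333. Every group stood apart from the rest, with DPP4_neg vehicle highest. Pdk1 fell 1.81-fold in DPP4_neg (log2 difference −0.86 ± 0.05, limma adjusted p = 2.67e-12) and rose 1.2-fold in DPP4_pos APCs (log2 difference 0.27 ± 0.05, limma adjusted p = 7.06e-05).

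Of the other HIF targets, Ddit4 (chromosome 10, 59949675 to 59951770), an inhibitor of the growth kinase mTORC1, had the highest fitted rise in DPP4_neg APCs. Its normalized counts were 635, 569, 544 and 726 in the vehicle and 4827, 4467, 4569.7 and 4977 in the isoproterenol libraries of DPP4_neg APCs. Those of DPP4_pos APCs were 354, 334, 366 and 358 and 6444, 5931, 5454 and 6017. No isoproterenol library overlapped a vehicle library. Ddit4 rose 7.65-fold (log2 difference 2.93 ± 0.07, limma adjusted p = 9.65e-20) and, in DPP4_pos, 16.8-fold (log2 difference 4.07 ± 0.07, limma adjusted p = 1.62e-22). Ndrg1 (chromosome 15, 66929318 to 66969641), a stress-response gene, differed from most members in rising more in DPP4_neg. DPP4_neg libraries had 133, 127, 137 and 105 normalized counts under vehicle and 557, 565, 497 and 511 under isoproterenol. DPP4_pos libraries had 704, 824, 786 and 749 under vehicle and 1954, 2279, 2179 and 2172 under isoproterenol. The groups stood apart, and DPP4_pos vehicle libraries were already above DPP4_neg isoproterenol libraries. Ndrg1 rose 4.23-fold in DPP4_neg (log2 difference 2.08 ± 0.07, limma adjusted p = 1.99e-16) and 2.8-fold in DPP4_pos (log2 difference 1.49 ± 0.07, limma adjusted p = 3.25e-14), and the responses differed by −0.60 ± 0.10. Ankrd37 (chromosome 8, 45996908 to 46000414), an ankyrin repeat gene, was low throughout. Under vehicle the DPP4_neg libraries held 16.8, 21.4, 26.3 and 29.1 normalized counts of Ankrd37, and under isoproterenol 26.7, 23.5, 26.8 and 24.9. For DPP4_pos libraries the values were 22.4, 14.1, 16.8 and 12.7 under vehicle and 75.3, 85.4, 56.99 and 54.5 under isoproterenol. In DPP4_neg treatments overlapped, and in DPP4_pos they did not. It rose 3.96-fold in DPP4_pos (log2 difference 1.99 ± 0.21, limma adjusted p = 1.3e-08) and did not pass in DPP4_neg (log2 difference 0.15 ± 0.21, limma adjusted p = 0.557).

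Bnip3 and Bnip3l, which mark mitochondria for removal, fell in both populations. Bnip3 changed from 1439 ± 68.8 to 799.9 ± 42.6 in DPP4_neg (log2 difference −0.85 ± 0.06, limma adjusted p = 3.29e-11) and from 839.7 ± 46.9 to 736 ± 68.2 in DPP4_pos (log2 difference −0.19 ± 0.06, limma adjusted p = 0.00525), where libraries overlapped. Bnip3l changed from 1453 ± 43.1 to 1307 ± 73.4 (log2 difference −0.15 ± 0.04, limma adjusted p = 0.00262) and from 1929 ± 56.04 to 1321 ± 43.6 (log2 difference −0.55 ± 0.04, limma adjusted p = 6.14e-11). The mitochondrial membrane gene Higd1a rose 1.26-fold and 2.41-fold, and the histone demethylase gene Kdm3a 1.21-fold and 1.65-fold, in DPP4_neg and DPP4_pos APCs. Of the collagen prolyl hydroxylases, P4ha2 rose 1.53-fold and 1.39-fold. The difference of its responses (−0.14 ± 0.05) did not pass without DPP4_pos isoproterenol replicate 4 (−0.12). P4ha1 rose 1.19-fold in DPP4_pos APCs (log2 difference 0.25 ± 0.03, limma adjusted p = 1.72e-07), but was lower there under quantile normalization (−0.19), which also turned its difference of responses from 0.20 ± 0.04 to −0.16. It did not pass in DPP4_neg (log2 difference 0.06 ± 0.03, limma adjusted p = 0.123). The carbonic anhydrase genes Car12 and Car9 lay on either side of the level for testing. Car12, just above it, had means of 10.3 ± 3.54 and 17.4 ± 4.503 in DPP4_neg and 11.96 ± 5.22 and 15.7 ± 5.16 in DPP4_pos APCs, and passed no comparison, though 9 of 26 alternatives called it higher in DPP4_neg, among them without DPP4_neg vehicle replicate 2 (0.92), DPP4_neg isoproterenol replicate 2 (0.83), DPP4_pos vehicle replicate 3 (0.72) or DPP4_pos isoproterenol replicate 3 (0.72). Car9, just below it, had 12.9 ± 3.54 and 5.45 ± 1.04 in DPP4_neg and 3.93 ± 3.23 and 1.57 ± 1.83 in DPP4_pos, the last from 5 reads.

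The populations were also compared under each treatment. Under vehicle, DPP4_pos APCs had lower levels of most members: 27 of 36 were lower, 7 higher and 2 did not pass, where 66.6% of all genes were called, 31.6% higher and 35.0% lower. Libraries of the populations did not overlap in 7 higher and 26 lower members, where this held for 67.3% of all genes, 32.1% higher and 35.2% lower. The median log2 difference was −0.74, against −0.01 over all genes. Of 14 enzymes 12 were lower, and the exceptions were Eno2 (3.22-fold higher) and Pfkm (1.25-fold higher). Slc16a3 was 9.25-fold lower (log2 difference −3.21 ± 0.07, limma adjusted p = 2.36e-20), Eno1 3.54-fold, Hk2 3.21-fold, Pdk1 2.96-fold and Pgk1 2.73-fold lower. All 5 genes of oxygen sensing were lower in DPP4_pos, among them Egln3 (2.51-fold) and Hif1a (1.64-fold). Ndrg1 was 6.08-fold higher (log2 difference 2.60 ± 0.07, limma adjusted p = 3.99e-18), and Slc16a1, Pfkfb4, Bnip3l and Kdm3a were higher too. The lower level of Ankrd37 (log2 difference −0.48 ± 0.21, limma adjusted p = 0.0471) lost its call in 17 of 27 alternatives, among them without DPP4_neg vehicle replicate 2, 3 or 4 (−0.51, −0.42, −0.37), DPP4_neg isoproterenol replicate 1, 2, 3 or 4 (−0.48), DPP4_pos vehicle replicate 2, 3 or 4 (−0.42, −0.50, −0.37) or DPP4_pos isoproterenol replicate 1 (−0.48).

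Under isoproterenol the picture was mixed: 12 of 36 members were higher in DPP4_pos, 16 lower and 8 did not pass, where 74.4% of all genes were called, 37.4% higher and 37.0% lower. Libraries did not overlap in 11 higher and 15 lower members, where this held for 63.9% of all genes, 32.9% higher and 31.0% lower. Under quantile normalization 10 were higher and 21 lower. The median was −0.13, against −0.00 over all genes. Of 14 enzymes 10 were lower in DPP4_pos, 1 was higher (Hk2) and 3 did not pass. Pfkm was among the 10, having been higher in DPP4_pos under vehicle. Eno1 was 2.02-fold lower, Tpi1 1.58-fold and Pgk1 1.62-fold lower, while Ldha (log2 difference −0.08 ± 0.04, limma adjusted p = 0.0866) and Slc16a3 (log2 difference 0.03 ± 0.07, limma adjusted p = 0.698) did not pass. Ldha was called lower without DPP4_pos isoproterenol replicate 1 or 2 (−0.11, −0.10), as it was with quantile (−0.35), TMM (−0.12) and edgeR (−0.12) fits. Slc16a3 was lower and passed under quantile normalization (−0.21), as was Bnip3l (−0.15). Eno2 (−0.17 ± 0.08) did not pass but did without DPP4_neg vehicle replicate 2 (−0.17) or DPP4_pos isoproterenol replicate 1 or 4 (−0.21), and Bnip3 (−0.12 ± 0.06) did without DPP4_neg isoproterenol replicate 2 (−0.15) or DPP4_pos isoproterenol replicate 2 (−0.17). Higd1a was lower (log2 difference −0.14 ± 0.06, limma adjusted p = 0.0328), a call lost without DPP4_neg isoproterenol replicate 2 or 4 (−0.10, −0.13) or DPP4_pos isoproterenol replicate 3 or 4 (−0.10, −0.11). Lower in DPP4_pos under vehicle and higher under isoproterenol were 8 members: Slc2a1, Hk2, Pfkfb3, Hif1a, Egln1, Egln3, Ddit4 and Ankrd37. Under quantile normalization the difference under isoproterenol was −0.04 for Egln1 and 0.08 for Ddit4, and neither passed. Hk2 went from −1.68 ± 0.06 to 1.07 ± 0.06, Slc2a1 from −1.03 ± 0.05 to 1.08 ± 0.05, Hif1a from −0.71 ± 0.05 to 1.06 ± 0.05 and Egln3 from −1.33 ± 0.13 to 1.25 ± 0.13. Lower under both treatments were 14 members, 9 of them enzymes. Of all genes, 35.0% were lower under vehicle, and 37.4% were higher and 37.0% lower under isoproterenol. The share of all genes with either joint pattern was not computed, so these 2 counts are description alone.

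**Figure D5:**
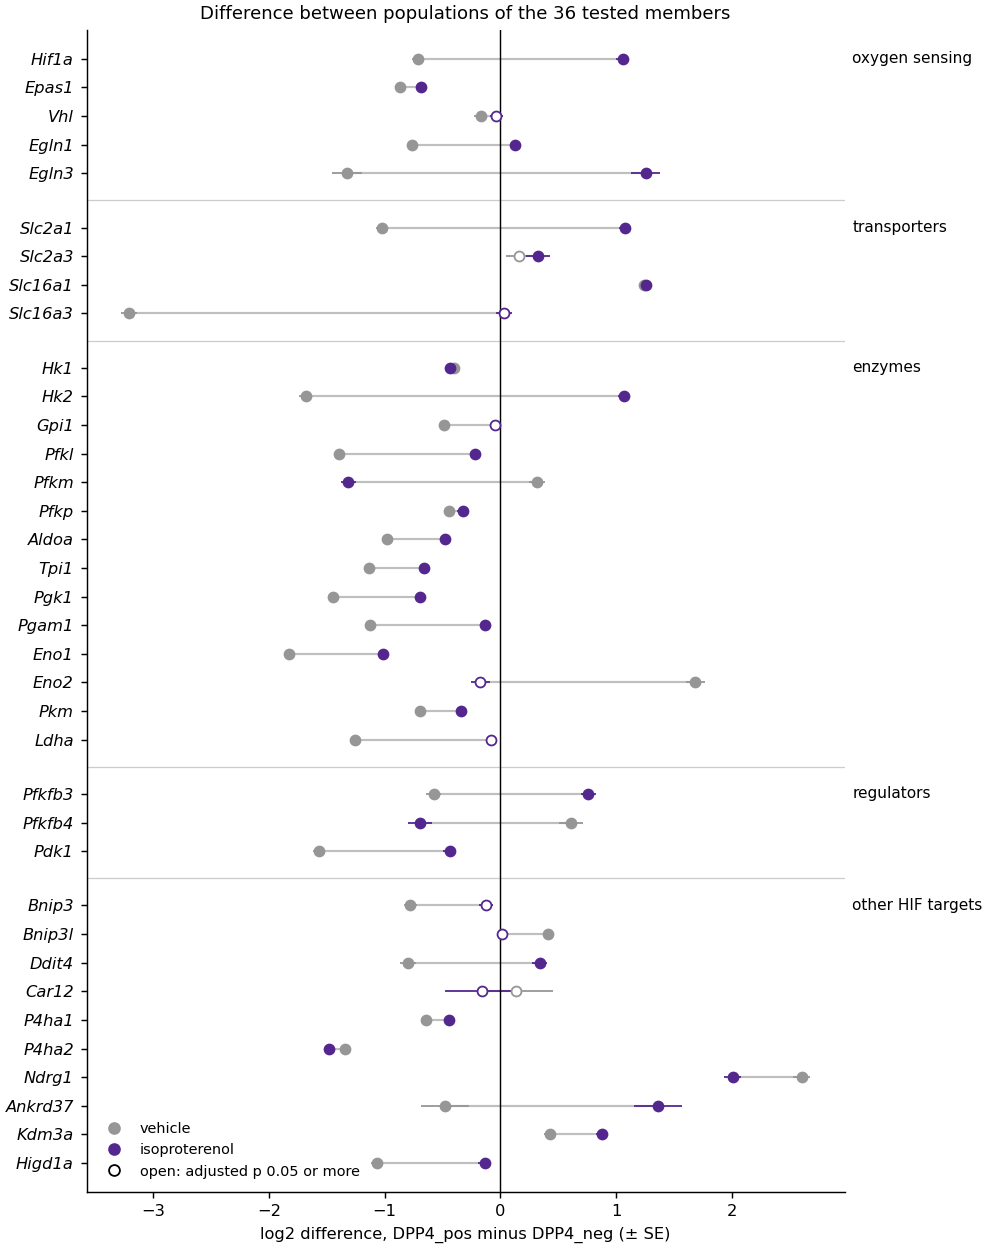
Log2 difference between DPP4_pos and DPP4_neg APCs, ± SE, for the 36 tested members under vehicle (grey) and isoproterenol (purple); open symbols did not pass. Most grey points lie left of 0, and Hk2, Slc2a1, Hif1a and Egln3 move from about −1.68, −1.03, −0.71 and −1.33 to the right of 0.

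Neighbouring genes of the pathway, from lists that hold no member, are given against the same shares of all genes: 32.1% rose and 33.6% fell in DPP4_neg, and 39.4% rose and 43.3% fell in DPP4_pos APCs. Their difference from the members was not tested. Of 19 tested other glycolysis genes, 6 rose and 8 fell in DPP4_neg (median log2 difference −0.06) and 6 rose and 11 fell in DPP4_pos APCs (median −0.70). The insulin-responsive glucose transporter Slc2a4 fell from 87.9 ± 16.6 to 14.6 ± 7.897 normalized counts in DPP4_neg and from 72.8 ± 5.32 to 16.4 ± 5.01 in DPP4_pos. The responses of Gapdh, which also has many copies in the genome, differed (log2 difference 1.26 ± 0.22, limma adjusted p = 3.29e-05). Of 14 genes of pyruvate entry into mitochondria, 2 rose and 8 fell in DPP4_neg and 3 rose and 4 fell in DPP4_pos. Pdk4, the fasting-induced pyruvate dehydrogenase kinase, fell from 749.9 ± 49.7 to 126 ± 11.7 in DPP4_neg (log2 difference −2.56 ± 0.10, limma adjusted p = 8.96e-16) and from 363 ± 23.7 to 18.3 ± 2.94 in DPP4_pos (log2 difference −4.25 ± 0.10, limma adjusted p = 4.95e-20). Pdk2, another such kinase, fell from 627 ± 41.6 to 318 ± 35.4 and from 523 ± 22.2 to 113 ± 7.92. The phosphatase gene Pdp2, which reverses these kinases, rose from 163 ± 16.96 to 371 ± 37.6 in DPP4_pos. Of 16 genes of glycogen and the pentose phosphate pathway, 5 rose and 5 fell in DPP4_neg and 7 rose and 2 fell in DPP4_pos. Pgd, an NADPH-producing enzyme of that pathway, rose from 4155 ± 116 to 12148 ± 439.6 and from 4170.4 ± 33.2 to 20721 ± 1199. Ppp1r3c, which targets a phosphatase to glycogen, rose from 164 ± 12.6 to 713 ± 32.95 and from 281 ± 20.9 to 1717 ± 76.3.

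Of 11 tested other oxygen sensing genes, 7 rose and 3 fell in DPP4_neg and 5 rose and 2 fell in DPP4_pos APCs. Cited2, which competes with HIF for its coactivator, fell from 2903 ± 97.6 to 791 ± 73.8 in DPP4_neg and from 1334 ± 24.8 to 786 ± 34.7 in DPP4_pos. Siah2, a ligase that removes Egln proteins, rose from 119 ± 6.76 to 402 ± 11.7 in DPP4_pos (log2 difference 1.75 ± 0.08, limma adjusted p = 5.55e-15). Of 34 tested other HIF targets outside the group, 10 rose and 18 fell in DPP4_neg (median −0.14) and 17 rose and 16 fell in DPP4_pos (median 0.15). Of all genes, 32.1% rose and 33.6% fell in DPP4_neg, and 39.4% rose and 43.3% fell in DPP4_pos. The vasodilator peptide gene Adm fell from 4996 ± 359 to 118 ± 13.1 and from 7949 ± 321 to 588 ± 89.8, and the vasoconstrictor gene Edn1 from 139 ± 11.1 to 9.26 ± 7.05 and from 221 ± 19.996 to 21.8 ± 3.42. Bhlhe40, a transcriptional repressor, rose from 708 ± 37.3 to 3326 ± 26.9 in DPP4_pos.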

How the data were processed

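RNA was sequenced from 16 libraries, in 4 groups of 4 taken from the sample labels. The authors deposited a signal per gene, counts divided by a size factor for each library; whole reads came back for 100% of 280334 values above 0 (within 0.001). Per the submitters' processing notes, the tools were DESeq2 1.6.3, featureCounts 1.4.6, HISAT2 2.0.1 and Trim Galore 0.4.1, with builds GRCm38 and mm10. No source used here gives the annotation, the strand setting or the order of steps. Entries without a symbol held 0.0926% of normalized counts.

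Values were taken as log2(normalized count + 1) and fitted with limma 3.58.1 (R 4.3.3) with an intensity trend, 4 group means and all 16 libraries. Genes with at least 10 normalized counts in at least 4 libraries were tested, p-values were Benjamini-Hochberg adjusted over all of them, and calls are at 0.05. Log2 differences of low genes are understated on this scale. Shares per exon base divide the counts of a gene by the joined length of all its GENCODE exons. That length can exceed that of the transcripts present, and the size of such shares depends on it. The 5 comparisons share libraries. Values per library are given for 8 members set by name and the 5 of each division with the largest difference in a response or between responses. List genes are named only among the 3 with the largest difference of their list. Members and lists were chosen with earlier results of these data known. Alternatives were other pseudocounts, filters and scalings, edgeR 4.0.16 and DESeq2 1.42.0 on recovered reads, no trend, only the groups compared, each library left out and a replicate block. The fit was also run on simulated counts in which few genes changed, equally up and down, in DPP4_neg isoproterenol alone. In these data most genes were called, so that run cannot show how the scaling performs here. No library repeated another of its group: chi-square per degree of freedom was 1.62 to 9.39.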

Additional observations from a re-analysis of the deposited data

Results flagged for a closer look

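In 144 groups of 4 libraries, 7 libraries lay apart from the others of their group, by a gap to the nearest that exceeded Dixon's critical share of the range of the group. Chance gives about 1 in 20 such groups. The lowest of its group was replicate 3 of DPP4_neg isoproterenol for Slc16a3, with 2260.4 normalized counts. Replicate 1 of DPP4_pos vehicle was lowest for Pfkm with 701 and highest for Pgk1 with 1888. Replicate 3 of DPP4_neg vehicle was lowest for Pfkfb3 with 732, and replicate 4 was highest for P4ha2 with 4726. For the low gene Car12, replicate 2 of DPP4_neg vehicle with 15.6 and replicate 3 of DPP4_pos isoproterenol with 23.4 were the highest.

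The response to isoproterenol differed between the populations in 30 members by the interaction test (limma adjusted p under 0.05), which 62.6% of all genes also passed. On the log2 scale, the DPP4_pos response minus the DPP4_neg response was, among the glycolytic genes with a positive difference, Slc16a3 3.24, Hk2 2.75, Slc2a1 2.10, Pfkfb3 1.34, Pfkl 1.17, Ldha 1.17, Pdk1 1.13, Pgam1 0.99, Eno1 0.81, Pgk1 0.75, Aldoa 0.50, Tpi1 0.47, Gpi1 0.44 and Pkm 0.35. Among the other genes it was Egln3 2.58, Ankrd37 1.84, Hif1a 1.77, Ddit4 1.14, Higd1a 0.93, Egln1 0.89, Bnip3 0.65, Kdm3a 0.45, P4ha1 0.20 and Epas1 0.19. The differences were negative in 6 members, with Eno2 −1.86, Pfkm −1.63, Pfkfb4 −1.30, Ndrg1 −0.60, Bnip3l −0.39 and P4ha2 −0.14. Quantile normalization ended the calls of Gpi1 (0.12), Aldoa (0.00) and Epas1 (0.03), and reversed Pkm (−0.11) and P4ha1 (−0.16). TMM (0.13) and edgeR (0.13) also ended that of Epas1, and leaving out DPP4_pos isoproterenol replicate 4 that of P4ha2 (−0.12).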

How the results depend on the processing

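Of 154 calls of single members, 135 were kept in every alternative run and 19 were ended or turned by at least 1, as given beside them above. Of the counts of members under alternatives, 534 stayed within 1.5 times the reported count and 2 did not: glycolytic genes lower in DPP4_neg were 2 instead of 4 without DPP4_neg vehicle replicate 2, and those with a negative difference of responses were 5 instead of 3 under quantile normalization. The cause was not tested. Some differences changed sign under quantile normalization. These were, for the response in DPP4_neg, Pfkl −0.0866, Pfkp −0.0173, Pgam1 −0.0564, P4ha1 −0.0293. For DPP4_pos they were Pfkp −0.0515, Tpi1 −0.0145, Epas1 −0.0946, P4ha1 −0.19, and for the difference of responses Slc16a1 −0.37, Pfkp −0.0342, Pkm −0.11, Car12 0.0511, P4ha1 −0.16. Between populations they were Car12 −0.0773 under vehicle, and Slc16a3 −0.21, Egln1 −0.0421, Bnip3l −0.15 under isoproterenol. With TMM and edgeR, Slc16a1 had −0.0420 and −0.0470 for the difference of responses, and Slc16a3 −0.00731 and −0.0148 and Bnip3l −0.0201 and −0.0234 under isoproterenol. Leaving out each library gave ranges that cross 0 for Pfkl −0.0228 to 0.0368, Pfkm −0.0494 to 0.0342 and Pgam1 −0.0143 to 0.0338 in DPP4_neg, Slc16a1 −0.0209 to 0.0403 and Hk1 −0.0685 to 0.00103 for the difference, Car12 −0.0571 to 0.444 under vehicle, and Slc16a3 −0.0513 to 0.0808, Gpi1 −0.0828 to 0.00470 and Bnip3l −0.0237 to 0.0395 under isoproterenol. None of the differences in the last sentence was called in the reported fit. Hk1 (−0.23, difference of responses), Gpi1 (−0.27, under isoproterenol) and Car12 (0.89, in DPP4_pos) passed under quantile normalization. Another scaling moved the median of all genes by less than 0.1. Each scaling centres most genes, so this median does not describe single members. Some of them moved more, as P4ha1 in DPP4_pos did from 0.25 to −0.19 under quantile normalization.

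Same-numbered libraries did not deviate together: of 24 such pairs 1 had a correlation above 0.1 (range −0.231 to 0.131), and 6 of 16 libraries correlated best with their own number. With the replicate block, the call of Ankrd37 under vehicle ended (−0.48, limma adjusted p = 0.0643), and other HIF genes lower under vehicle were 10 instead of 11.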
